A study of Mus musculus with 30 samples.

Results

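The glomeruli of leptin-deficient diabetic mice were compared between 4 and 16 weeks of age. The comparison takes in 7 of the 30 arrays of the series, 4 arrays of 16-week-old and 3 of 4-week-old animals, chosen by their labelled genotype and age, and it covers every gene measured. All animals were female and of the BTBR strain. The 7 arrays come from mice labelled BTBR ob/ob, which lack functional leptin because both copies of Lep carry the ob mutation. The ages set beside them were 8 weeks in ob/ob mice (4 arrays) and 4, 8 and 16 weeks in BTBR wild-type (WT) mice (3, 4 and 4 arrays). Arrays of 24-week-old mice (8) were not used in the main comparison. Kidneys were pressed through steel sieves of decreasing mesh, the glomerular fraction was inspected under a microscope, and its total RNA was hybridised to Affymetrix mouse transcriptome arrays. Each array is labelled as a numbered replicate of a mouse, and the labels do not say whether a replicate could hold more than 1 animal, so the p-values measure the spread between these samples.

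The glomerulus is the filter of the kidney. It consists of fenestrated endothelial cells, podocytes that wrap the capillaries with interlocking foot processes, a basement membrane made by both, and mesangial cells that hold the capillary loops together. Mice without leptin eat without restraint, become obese and insulin resistant, and on the BTBR background they develop lasting hyperglycaemia and a kidney disease with albuminuria, mesangial expansion and podocyte loss that resembles human diabetic nephropathy. Kidneys of 4-week-old mice are also still growing, so an age comparison in diabetic animals holds growth, maturation and disease together, and the WT mice of the same ages show growth and maturation without the disease.

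The 7 arrays were alike in quality. The area under the curve that separates exon from intron control probe sets lay between 0.826 and 0.854 at 4 weeks and between 0.832 and 0.873 at 16 weeks, and the correlation between any pair of the 7 arrays was between 0.98 and 0.996. Intron controls, which stand for signal without transcript, had array medians of 5.84 to 6.35, so values below about 6 are at the level of background. About 1 in 20 intron controls read above a level that lay between 8.94 and 9.83 on the 7 arrays. A value between about 6 and that level is within the range of the upper intron controls, so it is not by itself shown to be transcript. The sieved fraction held tubule as well as glomerulus: Slc34a1, the sodium-phosphate cotransporter of the proximal tubule brush border, read 18.79 to 19.5 on the 7 arrays against a highest value of 19.93 in the whole data set. Lep itself, the mutated gene, read 4.88 to 5.22 at 4 weeks and 5.18 to 5.45 at 16 weeks, at the level of intron controls in both ages, so it does not check the labels. All levels and differences below are in the deposited log2 units. Since 1.35% of the values of tested genes exceed 16, more than a scanner of this kind can give, the scale was stretched by a step that is not given in the sources used here, and a difference of 1 is not read as a doubling.

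Between 4 and 16 weeks 570 of 23506 tested genes (2.42%) differed in ob/ob glomeruli, 344 higher (1.46%) and 226 lower (0.961%) at 16 weeks (limma, Benjamini-Hochberg adjusted p under 0.05); 3828 genes had an unadjusted p under 0.05. The difference reached 1 log2 unit or more in 124 of the rises and 47 of the falls. In 568 of the 570 genes the 3 young and 4 older arrays did not overlap, against 15.2% of all tested genes (3578). The 570 were called on the same arrays, so this describes the calls and is not separate evidence for them. The apolipoprotein gene Apob and the retinaldehyde dehydrogenase gene Aldh1a1 had the largest rises, and the lectin-like receptor gene Clec2h and the organic anion transporter gene Slc22a29 the largest falls. The count rests on few animals. It was 209 without replicate 4 of 16 weeks and 193, 189 and 189 without replicate 1, 2 or 3 of 4 weeks, and it was 21 when the spread was estimated from the 7 arrays alone. A fit with the mean podocyte marker level of each array as a covariate, chosen after the data were seen, called 111 genes, of which 96 were among the 570.

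Markers of the 3 glomerular cell types read higher at 16 weeks on all 4 arrays, by an amount that differed between arrays. The mean level of 27 podocyte markers was 9.68, 9.91 and 10.01 at 4 weeks and 10.54, 10.30, 10.26 and 10.74 at 16 weeks. For 21 glomerular endothelial markers it was 10.46, 10.52 and 10.79, then 11.32, 11.32, 11.30 and 12.20. For 17 mesangial and smooth muscle markers it was 9.11, 9.27 and 9.39, then 9.86, 9.97, 9.86 and 10.79. The ages did not overlap in any of the 3 lists. This was not particular to them, since the means of other lists did not overlap either. Examples are the adipocyte and inflammatory lists, higher at 16 weeks, and the cell cycle list, lower. Replicate 4 of 16 weeks was the highest array of each of the 3 glomerular lists. Without it the differences were 0.50, 0.72 and 0.64, against 0.59, 0.94 and 0.87 with it. In WT mice the same means differed by 0.56, 0.55 and 0.27. The proximal tubule markers averaged 15.18, 15.18 and 15.08 at 4 weeks and 15.00, 15.37, 14.81 and 14.48 at 16 weeks, with replicate 4 the lowest. In whole-tissue RNA more cells of a type and more RNA per cell cannot be told apart, nor can a purer glomerular fraction, and the part of this in the gene changes below was not tested beyond the covariate fit.

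**Figure D1:**
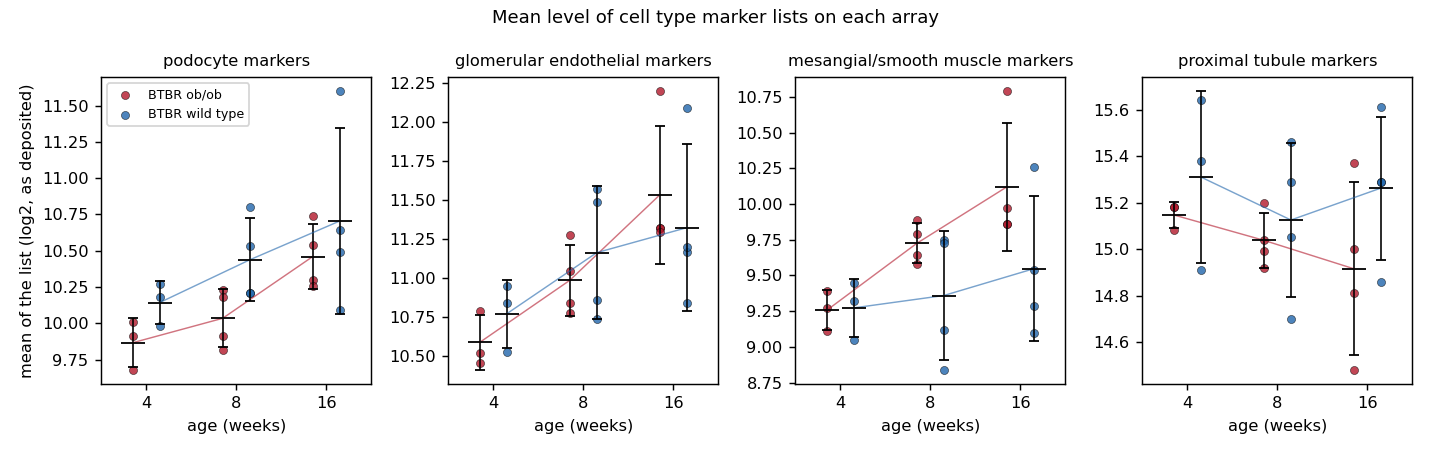
Mean log2 level (as deposited) of 4 cell type marker lists on each array at 4, 8 and 16 weeks, in ob/ob (red) and WT (blue); ages are drawn at even steps, points are arrays, and black bars are group means ± SD. In ob/ob the podocyte, endothelial and mesangial means are higher on all 4 arrays of 16 weeks than on the 3 of 4 weeks, and 1 array of 16 weeks stands above the rest in the endothelial (12.20) and mesangial (10.79) lists.

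Taken gene by gene, no podocyte marker passed the threshold (limma, 0 of 27; median difference 0.73 against -0.03 over all tested genes). Before adjustment 14 of them had a p under 0.05, all higher at 16 weeks, against 3828 of all 23506 tested genes in either direction. Nphs1, which encodes the slit diaphragm protein nephrin, read 9.77, 9.70 and 10.40 at 4 weeks and 10.71, 10.33, 10.80 and 12.06 at 16 weeks (difference 1.02 ± 0.45 SE, limma adjusted p = 0.259). Wt1, the podocyte transcription factor, differed by 0.75 ± 0.40 (limma adjusted p = 0.367), and by -0.20 with the podocyte covariate, whose mean it is part of. The 2 ages overlapped for both genes. Of the 21 endothelial markers 4 rose and none fell (median 0.95). They were Plat, the tissue plasminogen activator, the vascular endothelial growth factor receptors Kdr and Flt1, and Eng, a TGF-beta co-receptor. Flt1 read 10.76, 10.91 and 10.91, then 12.11, 12.39, 12.06 and 12.87 (1.5 ± 0.26, limma adjusted p = 0.00535). Of the 4, Flt1 alone was called without replicate 4 and with the podocyte covariate. Flt1 also rose in WT mice (1.12, limma adjusted p = 0.0375). Of 17 mesangial and smooth muscle markers 1 rose, the calcification inhibitor Mgp (10.42, 10.18 and 10.97, then 12.64, 12.89, 11.19 and 12.91; 1.89 ± 0.44), and its call was lost without replicate 4. Sema3g, a semaphorin made by podocytes, was among the 20 largest rises (10.73, 10.67 and 10.88, then 12.73, 12.64, 12.32 and 13.31; 1.99 ± 0.46). Its adjusted p was 0.0914 without replicate 4.

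Apob and Aldh1a1 had the largest rises. Apob, the protein that carries very low density lipoprotein and is also made by proximal tubule cells, read 8.89, 9.47 and 8.76 at 4 weeks and 13.56, 14.41, 14.04 and 13.54 at 16 weeks (4.85 ± 0.33, limma adjusted p = 1.52e-07). Aldh1a1, which turns retinaldehyde into retinoic acid, read 7.35, 7.33 and 7.40, then 10.93, 11.95, 10.94 and 11 (3.85 ± 0.36, limma adjusted p = 1.65e-05). For both genes the lowest older array stood far above the highest younger one. Aldh1a7, a close paralogue of Aldh1a1, rose by 3.12 ± 0.47 (8.47, 7.79 and 8.39, then 10.21, 12.34, 11.15 and 11.63). The near-identical fatty acid hydroxylases Cyp4a12a (2.53 ± 0.31) and Cyp4a12b (2.39 ± 0.35) rose together, from 7.04, 7.35 and 7.15 to 10.27, 9.95, 9.33 and 9.30 for Cyp4a12a. Probe sets of such pairs can bind each other's transcripts, so the members of each pair are not separate evidence. Apob, Aldh1a1, Cyp4a12a and Cyp4a12b passed the threshold under all 22 alternative settings.

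Other members of the fatty acid oxidation and PPAR list followed in smaller steps. Of 30 tested, 4 rose and none fell (median 0.21): Cyp4a12a, the lipid droplet protein Plin2 (9.45, 9.25 and 9.52, then 9.94, 10.30, 10.36 and 11.40; 1.09 ± 0.27), and the lipid-sensing nuclear receptors Pparg (0.96 ± 0.22) and Ppara (0.79 ± 0.20). Without replicate 4 only Cyp4a12a of these was called. In sterol and fatty acid synthesis 1 of 25 genes was called, the lanosterol demethylase Cyp51, which fell (10.04, 9.72 and 9.57, then 8.50, 9.10, 8.08 and 8.51; -1.23 ± 0.22, limma adjusted p = 0.00535). The median of the 25 was -0.33 in ob/ob and -0.17 in WT. Before adjustment 14 of them had a limma p under 0.05, 13 lower and 1 higher at 16 weeks. Over all 23506 tested genes that number was 3828 in either direction. Scarb2, which carries glucocerebrosidase to lysosomes, rose by 1.90 ± 0.30 (11.20, 11.58 and 11.54, then 13.18, 13.25, 12.71 and 14.23). None of 26 oxidative phosphorylation genes passed in limma (median -0.41, and -0.19 with the podocyte covariate). Of them 23 had an unadjusted p under 0.05, all lower at 16 weeks, against 3828 of all 23506 tested genes in either direction. The cytochrome c gene Cycs differed by -0.70 ± 0.20 (limma adjusted p = 0.0672).

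Cyp24a1 and Ppp1r3a had the next largest rises. Ppp1r3a, which tethers protein phosphatase 1 to glycogen, read 5.67, 6.54 and 6.14 at 4 weeks and 9.67, 8.43, 8.36 and 10.78 at 16 weeks (3.19 ± 0.53, limma adjusted p = 0.00399). Cyp24a1, the enzyme that breaks down active vitamin D, was the most variable: 8.34, 9.67 and 7.60, then 10.22, 12.27, 11.61 and 14.27 (3.56 ± 0.90, limma adjusted p = 0.0413). Its call was lost without replicate 4 (limma adjusted p = 0.15), and it was the only one of 19 vitamin D and mineral handling genes to pass. Sost, which encodes the secreted Wnt inhibitor sclerostin, rose by 2.42 ± 0.41 (6.22, 6.13 and 6.10, then 7.67, 8.68, 8.34 and 9.58). At 4 weeks the 3 arrays lay near the intron control medians for Sost and for Ppp1r3a. The size of both rises therefore rests in part on signal at background. None of 31 Wnt and Notch pathway genes passed in limma (median 0.14). Before adjustment 10 of the 31 had a p under 0.05, against 3828 of all 23506 tested genes.

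**Figure D2:**
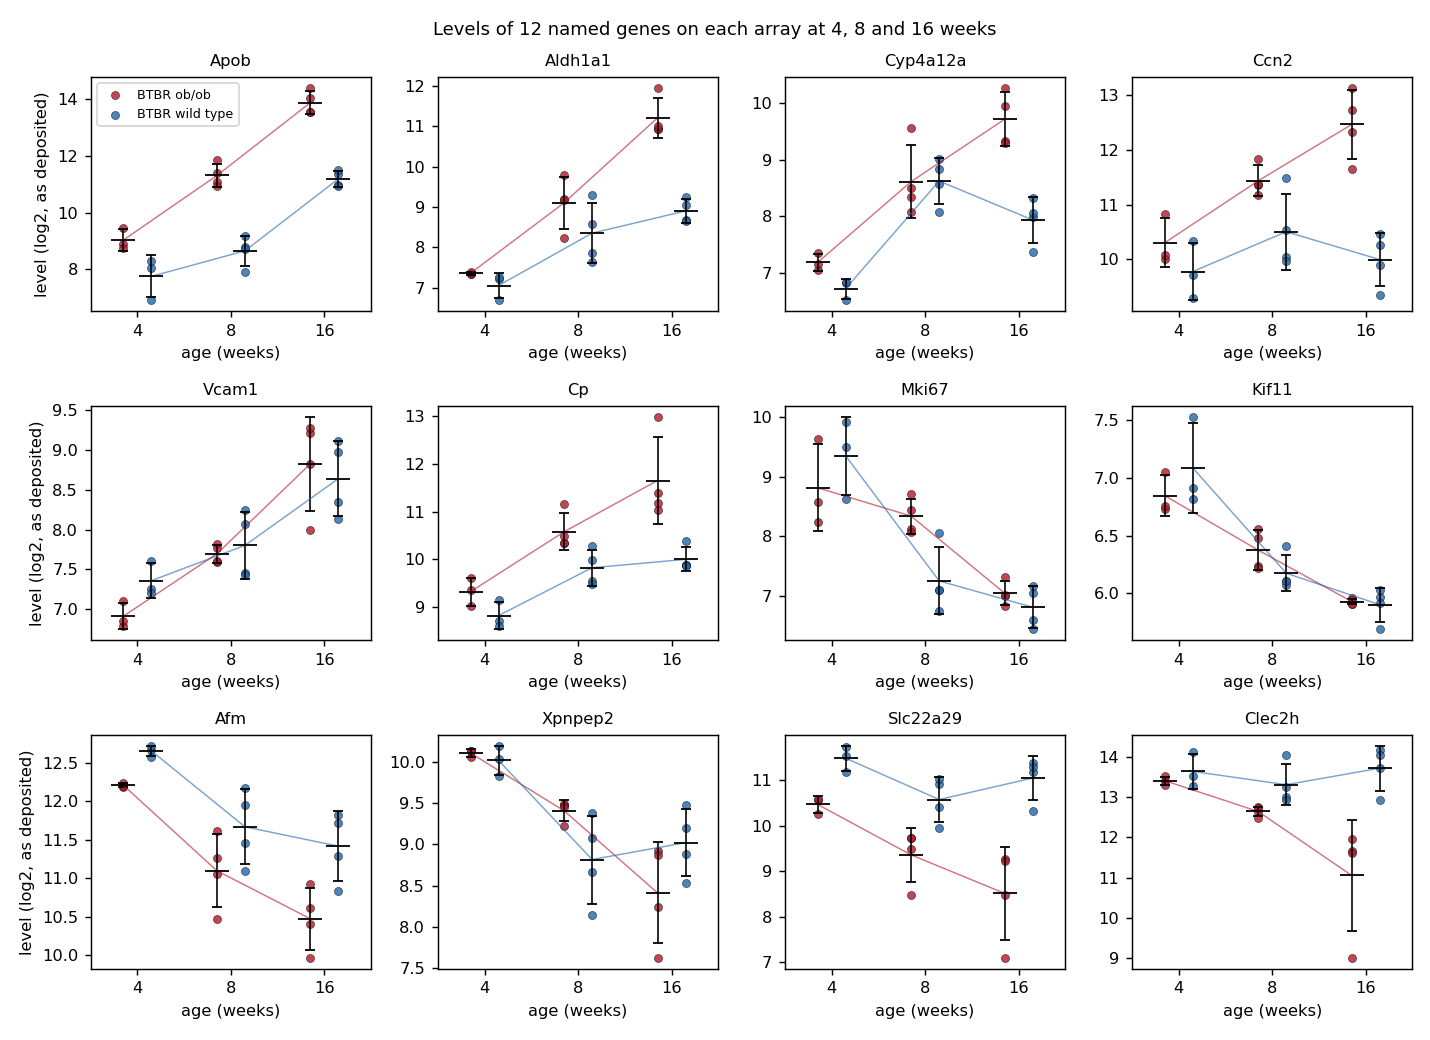
Log2 level (as deposited) of 12 of the named genes on each array at 4, 8 and 16 weeks in ob/ob (red) and WT (blue); ages are drawn at even steps and the vertical axes differ, points are arrays, and black bars are group means ± SD. In ob/ob the first 6 genes are higher and the last 6 lower at 16 than at 4 weeks with no overlap of arrays; Clec2h has 1 array of 16 weeks at 8.99, below the other 3.

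Matrix-associated signalling genes rose, and none of the collagens of the interstitial matrix list passed the threshold. Of 32 fibrillar and interstitial matrix genes 4 rose and none fell (median 0.09), and all 4 are matricellular or proteoglycan genes. Ccn2, the connective tissue growth factor, read 10.01, 10.07 and 10.82 at 4 weeks and 11.66, 12.33, 12.74 and 13.14 at 16 weeks (2.17 ± 0.38, limma adjusted p = 0.00523). Ccn1, of the same family, read 10.56, 10.62 and 10.57, then 12.29, 12.39, 11.45 and 12.89 (1.67 ± 0.30, limma adjusted p = 0.00641). The ages did not overlap in either gene. Thbs1, which can activate latent TGF-beta (1.44 ± 0.36), and the small proteoglycan Bgn (1.74 ± 0.38) also rose, but both calls were lost without replicate 4. With the podocyte covariate none of the 4 was called (limma adjusted p = 0.0592 for Ccn2 and 0.0518 for Ccn1). The fibril-forming collagens Col1a1 (-0.08 ± 0.18) and Col3a1 (-0.36 ± 0.13, limma adjusted p = 0.149) and the adhesive glycoprotein Fn1 (0.49 ± 0.36) did not pass. Prelp, a leucine-rich proteoglycan outside this list, rose by 2.17 ± 0.39 (7.41, 8.55 and 8.00, then 9.91, 11.19, 9.54 and 9.99).

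In TGF-beta and BMP signalling 6 of 28 genes rose and none fell (median 0.44). These were the ligands Tgfb1 (0.97 ± 0.25) and Bmp4 (0.89 ± 0.20), the receptors Tgfbr2 (0.90 ± 0.23) and Tgfbr3 (0.89 ± 0.18), the inhibitor Smad7 (0.49 ± 0.10) and the BMP target Id1 (0.68 ± 0.18). Only Smad7 was still called without replicate 4, and none with the podocyte covariate. Tgfb1 read 7.71, 7.59 and 7.70 at 4 weeks and 8.30, 8.37, 8.47 and 9.42 at 16 weeks, and the ages did not overlap with or without replicate 4. Among 16 matrix proteases and inhibitors 3 rose: Plat, the metalloproteinase inhibitor Timp2 (1.28 ± 0.33) and Meltf (0.50 ± 0.13), of which Meltf alone was called without replicate 4 and none with the podocyte covariate.

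A few basement membrane genes were called, while their list as a whole showed no shift. Of 22 tested, 3 fell and 1 rose, against 0.961% of all genes lower and 1.46% higher. The list median was -0.04 (0.02 with cyclic loess scaling), against -0.03 over all tested genes. By sign alone 11 members were higher and 11 lower. Fras1, a large extracellular protein of epithelial basement membranes, read 8.55, 9.05 and 8.94, then 8.28, 8.09, 7.80 and 7.25 (-0.99 ± 0.20, limma adjusted p = 0.0125). Its partner Frem2 fell by 0.69 on the log2 scale and the mature type IV collagen chain Col4a5 by 0.50, and these 3 falls were called without replicate 4. With the podocyte covariate Col4a5 alone was called (limma adjusted p = 0.101 for Fras1 and 0.0855 for Frem2). Col4a5 also fell in WT mice (-0.53, limma adjusted p = 0.0147). Col18a1, the source of endostatin, rose by 0.72 ± 0.17, a call lost without replicate 4. Col4a1 (0.04 ± 0.40) and Col4a3 (-0.09 ± 0.28), which form the fetal and the mature collagen IV network, were not called. Col4a1 read 10.27, 10.20 and 10.47 at 4 weeks and 9.29, 10.01, 10.29 and 11.81 at 16 weeks, a spread wider than the difference.

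Adhesion molecules and cytokines held the highest count of rises among the lists. Of 21 tested, 9 rose and none fell (median 0.56), against 1.46% of all genes higher. Vcam1, the adhesion receptor for leukocytes that is also found on parietal and injured tubular cells, read 6.79, 7.10 and 6.85 at 4 weeks and 9.21, 9.28, 7.99 and 8.83 at 16 weeks (1.91 ± 0.28, limma adjusted p = 0.00161). Cx3cl1, the membrane-bound chemokine fractalkine, read 7.42, 7.75 and 7.60, then 9.03, 9.07, 8.57 and 9.39 (1.43 ± 0.24, limma adjusted p = 0.00412). Icam1 rose by 0.98 ± 0.19, the TWEAK receptor Tnfrsf12a by 1.42 ± 0.28 and the macrophage growth factor Csf1 by 1.21 ± 0.29. The other 4 were Il34, Cxcl1, Tnfaip3 and Il1r1, at 0.59 to 0.74. Vcam1, Cx3cl1, Icam1 and Tnfrsf12a were called without replicate 4, and Vcam1 and Cx3cl1 with the podocyte covariate.

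Macrophage markers did not pass one by one. None of 23 was called in limma (median 0.42). Before adjustment 15 of the 23 had a p under 0.05, all higher at 16 weeks, against 3828 of all 23506 tested genes in either direction. The list mean was 6, 5.90 and 5.82 at 4 weeks and 6.43, 6.38, 6.16 and 6.84 at 16 weeks, close to the intron controls. The group means of the defining macrophage marker Adgre1 (F4/80) were 5.54 and 5.88, below or at background. Mrc1, the mannose receptor, had group means of 8.16 and 9.89 (1.73 ± 0.50, limma adjusted p = 0.0712), and lysozyme Lyz2 7.62 and 9.55 (1.93 ± 0.72, limma adjusted p = 0.162). Of 13 lymphocyte markers 1 rose, the antibody joining chain Jchain (0.73 ± 0.17), which also rose in WT mice (0.97). Its group means in ob/ob were 5.18 and 5.91, below or near the intron control medians, so the size of this difference rests on signal at background.

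Complement and plasma-type proteins rose as well. Of 15 complement genes 4 rose and none fell (median 0.55). Serping1, the C1 inhibitor, read 10.06, 10.60 and 10.28, then 11.53, 12.09, 11.13 and 12.33 (1.46 ± 0.26, limma adjusted p = 0.00641). The pore component C7 rose by 1.64 ± 0.42 and the proteases Masp1 by 0.67 ± 0.15 and C1ra by 0.66 ± 0.17. Of the 4 Serping1 and Masp1 were called without replicate 4, and none with the podocyte covariate. Cp, the copper oxidase ceruloplasmin, read 9.02, 9.60 and 9.35, then 11.04, 11.39, 11.19 and 12.99 (2.33 ± 0.34, limma adjusted p = 0.0017). Pros1, the anticoagulant protein S, rose by 1.90 ± 0.35, and Serpina1b, an alpha-1-antitrypsin gene with near-identical copies, by 1.90 ± 0.34. With the podocyte covariate Cp and Serpina1b were called and Pros1 was not (limma adjusted p = 0.0591). The antigen presentation genes H2-K1 (1.04 ± 0.28) and Tap2 (0.47 ± 0.08) were the 2 of 16 that rose, and Ifi44l and Ifih1 the 2 of 25 interferon response genes. Of these 4 Tap2 alone was called without replicate 4, and none with the podocyte covariate. Tap2 and Ifi44l were also called as rises in WT mice, where 3 of the 16 antigen presentation genes rose. The mean of the antigen presentation list rose by 0.57 in WT and by 0.53 in ob/ob.

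Kidney injury markers rose in part. Of 16 tested, 5 rose and none fell (median 0.69): Ccn2, Vcam1, Plin2, the iron-binding protein Lcn2 and the keratin Krt20. Ccn2 and Vcam1 alone were called without replicate 4, and Vcam1 alone with the podocyte covariate. Lcn2, also called NGAL, read 5.72, 5.4 and 5.67 at 4 weeks, below the intron control medians, and 6.68, 6.95, 6.24 and 7.05 at 16 weeks (1.14 ± 0.28, limma adjusted p = 0.0395). Havcr1 (KIM-1), the marker of injured proximal tubule, read 5.98, 5.84 and 5.82, then 6.28, 7.01, 5.89 and 6.86 (0.63 ± 0.39, limma adjusted p = 0.468). The cell cycle inhibitor Cdkn1a (p21) read 10.59, 10.85 and 11.66, then 11.26, 10.85, 11.98 and 13.16 (0.78 ± 0.49, limma adjusted p = 0.471). Both overlapped between ages. In WT mice 1 member of the list rose and 1 fell, with a median of 0.21 and a mean of -0.01, which differ in sign. The 1 called member of 18 p53 and senescence genes was Eda2r, a death-domain receptor gene that p53 can induce (5.27, 5.46 and 5.20, then 5.73, 6.34, 6.05 and 6.24; 0.78 ± 0.11, limma adjusted p = 0.00161); it remained called without replicate 4 and with the podocyte covariate. Its values at 4 weeks lie below the intron control medians and those at 16 weeks near them, so the size of this difference rests on signal at background.

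**Figure D3:**
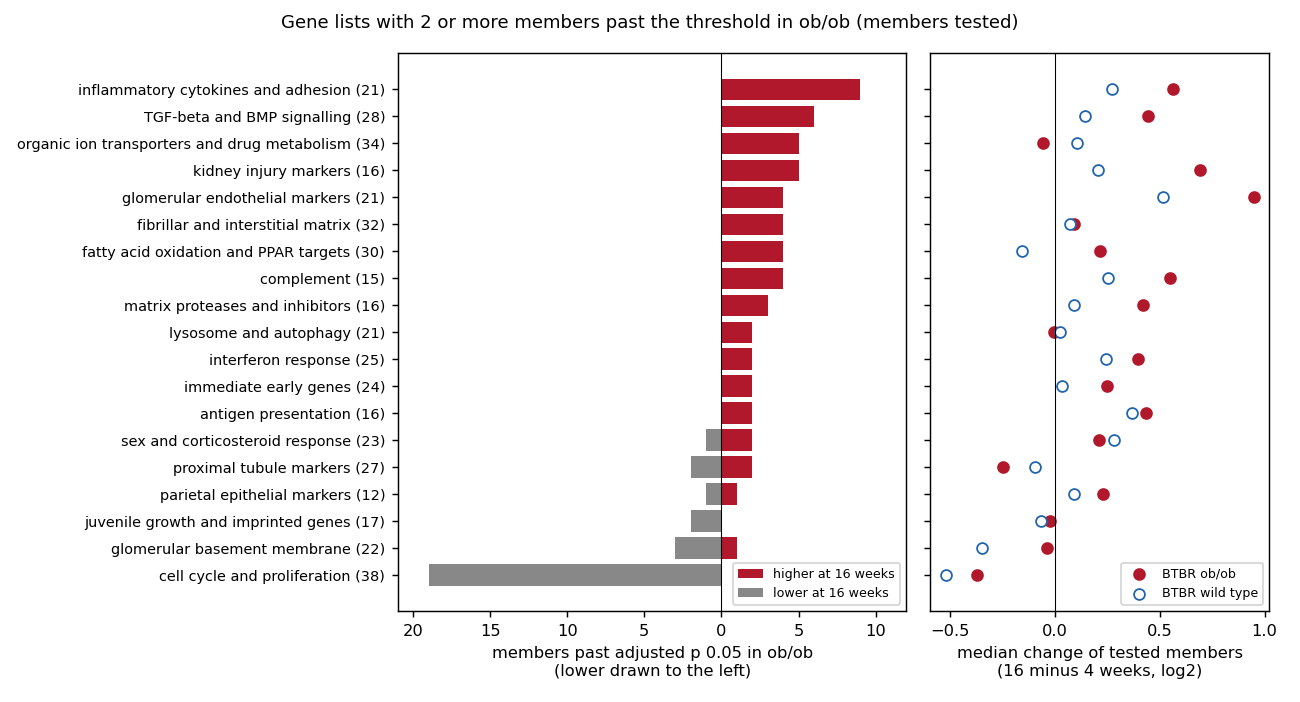
Left, number of members of each gene list past adjusted p 0.05 in ob/ob at 16 against 4 weeks, higher to the right and lower to the left, for lists with at least 2 such members (members tested in parentheses); right, median difference of all tested members on the log2 scale in ob/ob and WT. The cell cycle list has 19 falls and no rise, the inflammatory list 9 rises and no fall.

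Genes of cell division fell. Of 38 cell cycle and proliferation genes 19 fell and none rose (median -0.37), which compares with 0.961% of all genes lower. Mki67, which encodes the proliferation antigen Ki-67, read 8.57, 8.24 and 9.63 at 4 weeks and 7.33, 6.84, 7.01 and 7.03 at 16 weeks (-1.76 ± 0.33, limma adjusted p = 0.00917). The phosphatase gene Cdkn3 read 7.17, 6.36 and 7.37, then 6.07, 6, 5.84 and 5.73 (-1.06 ± 0.19), and the spindle motor Kif11 6.73, 6.76 and 7.05, then 5.96, 5.91, 5.91 and 5.94 (-0.91 ± 0.14, limma adjusted p = 0.00253). At 16 weeks both had reached the level of intron controls, where a further fall could not be read. The other 16 are Pbk, Prc1, Ect2, Ccna2, Top2a, Kif20a, Ccnb2, Rrm2, Cenpf, Tpx2, Plk1, Cdc20, Cenpe, Ube2c, Bub1 and Ttk, most of them genes of the spindle, the kinetochore and mitotic exit, at -0.86 to -0.37. Several genes of DNA replication in the same list were not called, a group picked after its values were seen, while Rrm2, a ribonucleotide reductase subunit that supplies replication, was among the falls. Not called were the helicase subunits Mcm2 (-0.03 ± 0.09), Mcm4 (0.20 ± 0.12) and Mcm6 (-0.35 ± 0.20), the sliding clamp Pcna (0.06 ± 0.09) and the thymidylate synthase Tyms (-0.08 ± 0.10). Mitotic genes of the list, among them Cdk1, Aurka, Bub1b and Kif23, were not called either. The calls therefore do not split the list into mitosis and replication. Of the 19 falls 9 were called without replicate 4 and 7 with the podocyte covariate. All 19 also fell in WT mice, where 22 members fell (median -0.52).

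**Figure D4:**
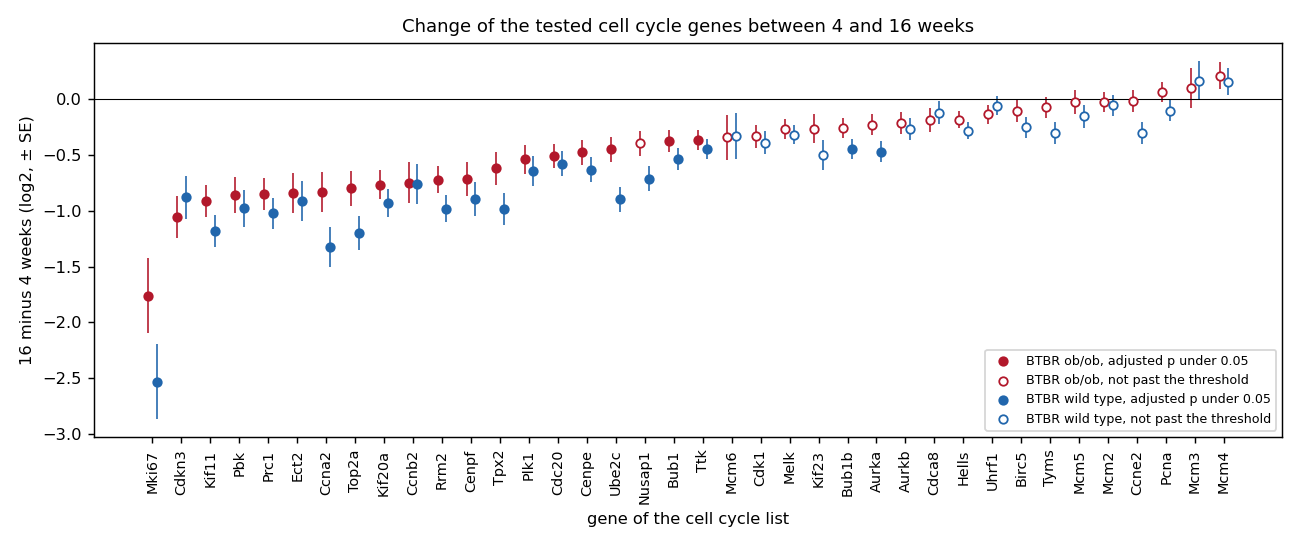
Difference between 16 and 4 weeks (log2, ± SE from the fit) of the 38 tested cell cycle genes in ob/ob (red) and WT (blue), ordered by the ob/ob value; filled points passed adjusted p 0.05. Mki67 lies lowest, at the left (-1.76 in ob/ob, -2.53 in WT), and Pcna, Mcm3 and Mcm4 at the right lie at or above 0.

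Many mitotic genes are known to be switched off in resting cells through a promoter element called the cell cycle genes homology region (CHR) together with CCAAT boxes. The promoters of the 3 largest falls with an entry in the RefSeq table (assembly GRCm38.p6) show these letters. The replication gene Pcna, picked by name among the genes not called, is printed beside them. Each is the 250 bases before the annotated start, written 5′ to 3′ on the gene's strand; capitals mark TTTGAA or its reverse complement TTCAAA, the core of the CHR, and CCAAT or its reverse complement ATTGG. The 2 motifs can share bases at their ends.
Mki67 (chr7:135716380-135716629, minus strand): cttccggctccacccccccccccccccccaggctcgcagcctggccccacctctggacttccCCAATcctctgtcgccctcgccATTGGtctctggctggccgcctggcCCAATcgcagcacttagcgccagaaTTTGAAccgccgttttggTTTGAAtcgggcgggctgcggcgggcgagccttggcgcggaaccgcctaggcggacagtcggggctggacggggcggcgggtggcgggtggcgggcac
Cdkn3 (chr14:46760291-46760540, plus strand): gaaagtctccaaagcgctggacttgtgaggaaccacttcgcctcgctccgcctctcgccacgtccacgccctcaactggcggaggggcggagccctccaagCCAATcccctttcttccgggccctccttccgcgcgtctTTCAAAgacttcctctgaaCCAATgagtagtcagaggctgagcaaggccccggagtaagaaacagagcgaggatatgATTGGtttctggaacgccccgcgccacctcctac
Kif11 (chr19:37376132-37376381, plus strand): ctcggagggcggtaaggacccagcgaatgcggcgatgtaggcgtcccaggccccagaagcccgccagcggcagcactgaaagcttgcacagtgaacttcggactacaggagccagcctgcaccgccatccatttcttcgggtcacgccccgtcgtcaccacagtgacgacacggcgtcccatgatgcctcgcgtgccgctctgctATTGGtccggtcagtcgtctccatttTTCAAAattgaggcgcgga
Pcna (chr2:132253181-132253430, minus strand): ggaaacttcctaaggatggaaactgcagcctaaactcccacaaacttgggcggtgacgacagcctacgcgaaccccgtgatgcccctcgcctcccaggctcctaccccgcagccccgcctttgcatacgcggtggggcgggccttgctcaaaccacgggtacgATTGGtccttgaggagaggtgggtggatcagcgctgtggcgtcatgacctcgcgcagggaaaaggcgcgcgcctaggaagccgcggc
The Mki67 window holds 2 CHR and 3 CCAAT matches, Cdkn3 1 and 3, Kif11 1 and 1, and Pcna no CHR and 1 CCAAT match. Of the 19 genes that fell, 15 had an entry: 8 hold a CHR match (53.3%) and 15 a CCAAT match. Among the 16 uncalled members with an entry 2 hold a CHR match (12.5%) and 11 a CCAAT match (68.8%). These 2 are Cdk1, with 2 CHR and 3 CCAAT matches, and Mcm2, with 1 of each. Over 27025 genes of the table the shares were 16.3% and 34.5%. A match describes these letters in this window and is not a tested site.

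A few other growth-related genes were called as falls, while their list as a whole showed no shift. Among 17 juvenile growth and imprinted genes 2 fell and none rose, against 0.961% of all genes lower. The list median was -0.02, against -0.03 over all tested genes, and by sign alone 8 members were higher and 9 lower. Zim1, an imprinted zinc finger gene, read 6.81, 7.93 and 8.04, then 5.87, 6.48, 6.61 and 6.41 (-1.26 ± 0.23, limma adjusted p = 0.00736). The Polycomb methyltransferase Ezh2, which is high in dividing cells, fell by 0.43 on the log2 scale (limma adjusted p = 0.0529 without replicate 4). Igf2, the fetal growth factor, read at intron level at both ages (-0.08 ± 0.10). Of 12 parietal epithelial markers 1 rose (Vcam1) and 1 fell (Prom1), with a median of 0.23. Prom1, a membrane protein of parietal and progenitor cells, read 13.19, 13.36 and 13.10, then 12.07, 12.05, 12.45 and 11.48 (-1.20 ± 0.18, limma adjusted p = 0.00165).

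Several of the largest falls were genes of tubular transport and metabolism. Clec2h read 13.41, 13.52 and 13.32 at 4 weeks and 11.95, 11.67, 11.60 and 8.99 at 16 weeks (-2.36 ± 0.49, limma adjusted p = 0.0158). Slc22a29 read 10.56, 10.59 and 10.26, then 9.27, 9.22, 8.48 and 7.09 (-1.96 ± 0.42), and its relative Slc22a27 fell by 1.54 on the log2 scale. In each of these genes replicate 4, the array with the lowest proximal tubule mean (14.48), was also the lowest of its group. Afm, which encodes the vitamin E binding protein afamin, fell more evenly: 12.19, 12.24 and 12.20, then 10.61, 10.92, 10.40 and 9.96 (-1.74 ± 0.28, limma adjusted p = 0.00345). Hacl1, a lyase of peroxisomal alpha-oxidation, read 11.25, 11.75 and 11.24, then 9.76, 9.93, 9.44 and 9.10 (-1.86 ± 0.25, limma adjusted p = 9.51e-04). Afm and Hacl1 passed under all 22 alternative settings. Both also fell in WT mice (-1.23 and -1.05, limma adjusted p = 0.0326 and 0.0394). Xpnpep2, a brush border aminopeptidase, fell by 1.70, the monoamine transporter gene Slc18a1 by 1.78, the acyl-CoA synthetase gene Acsm5 by 1.63 and Acmsd, of tryptophan breakdown, by 1.55, all on the log2 scale. Of these 4 Xpnpep2 alone was called without replicate 4 or with the podocyte covariate, and the call of Slc22a27 was lost in both settings. Clec2h and Slc22a29 were called without replicate 4 (limma adjusted p = 0.00953 and 0.0457). With the podocyte covariate neither was called (limma adjusted p = 0.15 and 0.189).

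Proximal tubule markers leaned lower as a list, with few calls. Of 27 tested, 2 fell and 2 rose, against 0.961% of all genes lower and 1.46% higher. The median was -0.25, and -0.09 without replicate 4. By sign alone 19 members were lower and 8 higher, against 13346 of all 23506 tested genes lower. Before adjustment 9 members had a limma p under 0.05, 7 lower and 2 higher, against 3828 of all tested genes in either direction. The creatine synthesis enzyme Gatm read 18.30, 18.40 and 18.32, then 17.49, 17.79, 17.57 and 16.75 (-0.94 ± 0.16, limma adjusted p = 0.00487), and Acsm2 fell by 0.68. The sulphate transporter gene Slc13a1 (1.29 ± 0.32) and Cyp4b1 (1.57 ± 0.35) rose. Of these 4 only Gatm was called without replicate 4, and none with the podocyte covariate. Slc34a1 differed by -0.23 ± 0.10 (limma adjusted p = 0.284). Among 34 organic ion transporters and drug metabolism genes 5 rose and none fell (median -0.06, and 0.02 with cyclic loess scaling). Abcb1a, the drug efflux pump P-glycoprotein, read 8.60, 8.68 and 8.44, then 9.95, 9.80, 10.05 and 10.58 (1.52 ± 0.21, limma adjusted p = 9.84e-04). Abcc4, another efflux pump, rose by 1.16 ± 0.22, its paralogous pump gene Abcb1b by 1.04 ± 0.25 and Fmo5 by 0.54 ± 0.12, with Aldh1a7 the fifth; Fmo5 was not called without replicate 4. Egf, which the distal tubule makes, was the 1 of 24 distal nephron and collecting duct markers called (16.52, 16.31 and 16.43, then 15.57, 16.23, 15.05 and 14.94; -0.97 ± 0.25, limma adjusted p = 0.0432), and its call was lost without replicate 4.

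The genes called in ob/ob mostly had the same sign over the same span of age in WT mice. In WT glomeruli 323 of 23506 genes (1.37%) differed between 4 and 16 weeks, 161 higher (0.685%) and 162 lower (0.689%). Called in both genotypes were 121 genes, 61 higher and 60 lower in each, which is 21.2% of the ob/ob and 37.5% of the WT calls. Which genotype had more calls depended on the setting: ob/ob against WT was 1431 against 1815 with array quality weights, 21 against 82 with only the arrays compared, 731 against 741 with the proximal tubule covariate and 111 against 336 with the podocyte covariate. Of the 570 ob/ob calls 526 (92.3%) had the same sign in WT, against 61.2% of all tested genes. The genes that rose in ob/ob had a median rise of 0.84 there and of 0.43 in WT, and those that fell had medians of -0.69 and -0.42; the ob/ob medians are of genes chosen on that change. Apob rose in WT too, from 8.05, 6.91 and 8.31 to 10.98, 10.95, 11.36 and 11.51 (3.44, limma adjusted p = 5.4e-05). Aldh1a1 rose by 1.85 in WT (limma adjusted p = 0.0111). Beside the 19 cell cycle genes, the list members called in both genotypes in the same direction were Flt1, Mgp, Vcam1, Tgfbr3, Tap2, Ifi44l, Abcb1a, Jchain, Col4a5 and Ezh2.

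**Figure D5:**
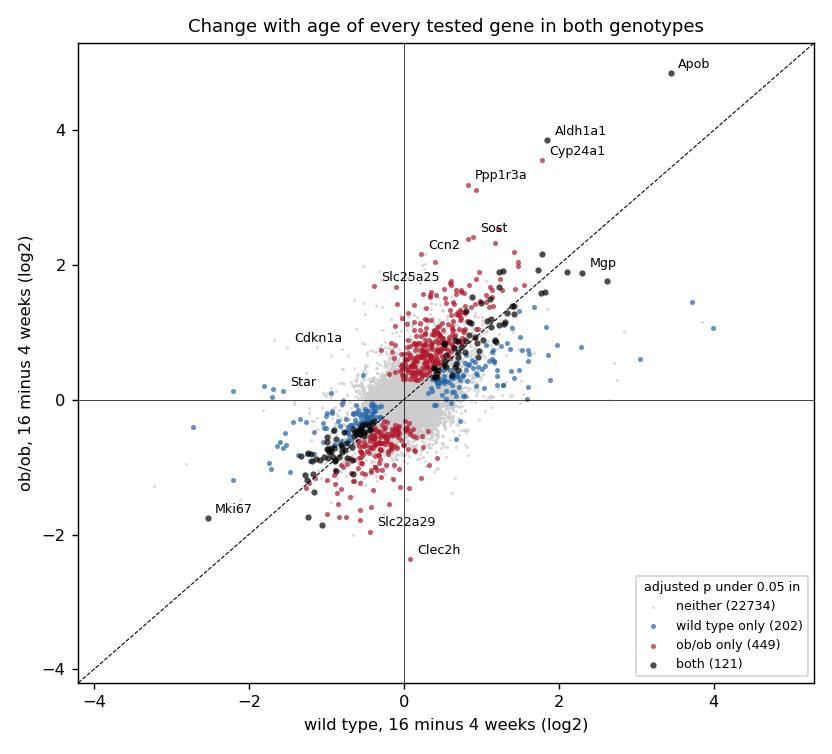
Difference between 16 and 4 weeks (log2) of each of the 23506 tested genes in WT (horizontal) and ob/ob (vertical); black points passed adjusted p 0.05 in both genotypes (121), red in ob/ob (449) and blue in WT (202), and the dashed line marks equal change. Most called genes lie in the quadrants of equal sign, with Apob at the upper right and Mki67 at the lower left.

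No gene passed the test of whether the ob/ob change differed from the WT change (limma, 0 of 23506; 1324 at an unadjusted p under 0.05; smallest adjusted p = 0.238). A gene called in ob/ob and not in WT is therefore not shown to differ between them. The smallest p belonged to Slc25a25, a mitochondrial ATP-magnesium/phosphate carrier. It read 7.85, 8.02 and 8.25 at 4 weeks and 9.41, 10, 9.62 and 9.89 at 16 weeks in ob/ob, and 6.92, 7.73 and 7.75, then 7.24, 7.05, 6.97 and 7.05 in WT (difference of changes 2.08 ± 0.35). Dpysl3, a cytoskeletal regulator, changed by 1.55 in ob/ob and 0.33 in WT (1.22 ± 0.24, limma adjusted p = 0.287). For Ccn2 the changes were 2.17 and 0.22 (limma adjusted p = 0.697 for their difference), for Ccn1 1.67 and -0.10 (0.519), for Clec2h -2.36 and 0.09 (0.697) and for Cdkn1a 0.78 and -1.5 (0.72). The steroid synthesis genes Star and Cyp21a1 also had small p values here. Both read higher on the 4-week WT arrays (5.60, 6.67 and 7.47 for Star; 6.32, 7.34 and 8.05 for Cyp21a1) and near background in ob/ob at both ages, so the difference lies in the young WT arrays. Array quality weights gave 16 genes for this test.

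At 8 weeks Apob, Aldh1a1, Mki67 and Afm stood between their 4- and 16-week levels. The 8-week comparisons share arrays with the one above and are given side by side only. Apob was the 1 gene called between 4 and 8 weeks (0.00425% of those tested; 2.28, limma adjusted p = 0.0303), and between 8 and 16 weeks 8 genes were called (0.034%), 6 higher (0.0255%) and 2 lower (0.00851%). Apob averaged 9.04 ± 0.38 (SD, n = 3), 11.32 ± 0.41 (SD, n = 4) and 13.89 ± 0.42 (SD, n = 4) at 4, 8 and 16 weeks, and Aldh1a1 7.36 ± 0.04, 9.10 ± 0.65 and 11.21 ± 0.50. Both rose further between 8 and 16 weeks (2.57 and 2.10). Adgrg2, an adhesion receptor, and Sptssb, a subunit of the enzyme that starts sphingolipid synthesis, differed by 0.18 and 0.12 from 4 to 8 weeks and by 0.65 and 1.05 from 8 to 16 weeks (limma adjusted p = 0.0158 for each of the latter). Both were below the intron control medians at 4 weeks. Mki67 averaged 8.82 ± 0.73, 8.34 ± 0.29 and 7.06 ± 0.20, and Afm 12.21 ± 0.03, 11.10 ± 0.48 and 10.47 ± 0.40, with neither step called on its own.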

How the data were processed

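The authors deposited log2 values of robust multi-array averaging (RMA) from Affymetrix Expression Console 1.4, per the submitters' processing notes; they were used as deposited. Values ran from 2.45 to 19.93. Neither the build nor any further setting is given in these sources. Of 72688 probe sets, 65956 are transcript clusters, of which 30604 carried 1 gene symbol in the platform annotation, 2146 several and 33206 none. Of the symbols, 22818 were checked by gene identifier against RefSeq (GRCm38.p6), and 827 changed. Where a gene had several probe sets (355 genes), the one with the highest mean was used. Genes at log2 5 or more on at least 3 of the 22 arrays of 4, 8 and 16 weeks were tested (23506, of which 354 share their values with another gene). One mean per group was fitted to these arrays with limma 3.58.1 in R 4.3.3 (residual df 16, prior df 3.21, median residual SD 0.183), without covariates; the threshold was a Benjamini-Hochberg adjusted p of 0.05, over all tested genes of a comparison. The median SE of a difference was 0.137, which is what 3 and 4 arrays allow; an exact test of 3 against 4 cannot go below p = 0.0571 (two-sided). The procedure was tested on simulated data.

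The comparison, its 38 gene lists (860 of 954 entries had a probe set) and the naming rule were chosen with earlier results of these data known. Named were the 20 called genes that rose most and the 20 that fell most (predicted, clone-named and receptor- or immunoglobulin-family genes left out), up to 5 called members of each list in each direction, the 15 smallest p of the difference between genotypes, and 12 genes fixed by name. Other members of lists are named after their values were seen. Alternatives were other filters, scalings, sample sets, probe set rules, array weights, covariates, a replicate block and leaving out each array. Promoters came from RefSeq (GRCm38.p6), first entry per gene; 31 of 38 cell cycle genes had one.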

Additional observations from a re-analysis of the deposited data

Results flagged for a closer look

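Among 132 sets of 4 arrays of 16-week-old ob/ob mice (named genes and list means), 12 (9.09%) had 1 array whose gap to its nearest neighbour exceeded Dixon's critical value; chance gives about 1 in 20. In 9 of the 12 the array was replicate 4, which was also the highest in the podocyte marker mean (10.74) and the lowest in the proximal tubule mean (14.48). It was the highest array for the mean of the endothelial markers (12.20) and of the mesangial markers (10.79), for Plat (17.17), Csf1 (9.81), Pparg (7.95), Tgfb1 (9.42) and Timp2 (12.55). It was the lowest for Clec2h (8.99) and for Slc34a1 (18.79).

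The other 3 arrays belonged to different genes. Aldh1a1 was highest on replicate 2 (11.95), Jchain highest on replicate 1 (6.50) and Mgp lowest on replicate 3 (11.19). For Aldh1a1 and Jchain all 4 older arrays stayed above the 3 younger ones.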

How the results depend on the processing

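No called named gene changed sign under the alternatives run. The uncalled Wt1 (to -0.20) and Col4a1 (to -0.49) did so with the podocyte covariate, and Col4a3 reached 0.05 at its highest. Col4a1 also changed sign without replicate 4 of 16 weeks (to -0.45). The count of 570 genes between 4 and 16 weeks in ob/ob moved to 21 with only the arrays compared, 171 with a minimum difference of 1, 111 with the podocyte mean as covariate (added after the data were seen), 939 with cyclic loess scaling (557 shared; 53.6% higher against 60.4%), 1431 with array quality weights (47.6% higher) and 1670 with the separation of controls as covariate (39.7% higher). Leaving out 1 array gave 189 to 696. Without 1 of the 4-week arrays or without replicate 4 of 16 weeks it was 189 to 209. The WT count of 323 moved to 82, 107, 573, 1815 and 829 with only the arrays compared, a minimum difference of 1, cyclic loess, weights and control separation, and to 741 with the proximal tubule mean as covariate; without 1 array it was 130 to 460 (130 to 194 where it moved by over 1.5 times). The test of different changes, 0 genes, gave 16 with weights and 0 to 5 without 1 array: 5 without replicate 1 of 16-week ob/ob mice, 3 without replicate 2 of 16-week and 2 without replicate 1 of 4-week WT mice. The 4 to 8 week count of 1 became 0 with all 30 arrays, only the arrays compared or the replicate block, 4 with weights, 8 with the tubule and 2 with the podocyte covariate, and 0 to 2 without 1 array. The 8 to 16 week count of 8 became 3 with all 30 arrays, 1 with only the arrays compared, 23 with cyclic loess, 16 with weights, 4 with a minimum difference of 1 or the replicate block, 60 with either the tubule or the separation covariate, and 1 to 23 without 1 array. The causes were not tested. The replicate block gave 390 calls for ob/ob 16 against 4 weeks, 374 of them among the 570. Deviations of same-numbered arrays of the 2 ages correlated at 0.243, 0.395 and 0.016 for numbers 1, 2 and 3. Pairs with different numbers lay between -0.251 and 0.157, so numbers 1 and 2 stood above all of them and number 3 did not. Replicate 3 of 4 weeks correlated best with replicate 4 (0.157). The labels name no factor behind the numbers, and whether same-numbered samples share one was not tested. Of 105 called named genes, 10 were called under all 22 alternatives, 41 with the podocyte covariate and 61 without replicate 4. Krt20 and Meltf were tested in 20 alternatives and Eda2r in 21, because filters on level dropped them from the rest. Signal near the intron controls limits what can be read of weakly expressed genes.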
